A study of Mus musculus and Macaca mulatta with 39 samples.

Results

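Cortex of C57BL6J mouse embryos at E14.5 (days of embryonic development) was compared with cortex at E11.5 for H3K4me2, a dimethylation of lysine 4 of histone H3, by chromatin immunoprecipitation and sequencing (ChIP-seq). The comparison rests on 4 of the 39 samples of the series, namely 2 biological replicates at E14.5 and 2 at E11.5, each with 1 deposited list of regions called by the authors. The overlapping autosomal regions of these 4 lists were merged into 58760 loci. A locus was called gained when both E14.5 lists and neither E11.5 list held it (1933 loci, 3.29%), lost when both E11.5 lists and neither E14.5 list held it (2276 loci, 3.87%), and shared when all 4 lists held it (24376 loci, 41.5%). The remaining 30175 loci (51.4%) were mixed. Membership follows from presence in these 4 lists, so the H3K4me2 values of gained and lost loci at E14.5 and E11.5 are given as a description. The H3K27ac lists of both stages, and all lists of frontal and occipital cortex at E17.5 (2 replicates for each tissue and mark), had no part in the choice and were used to describe the loci. All groups were bulk cortex of the same strain, taken from timed pregnant mothers and crosslinked with formaldehyde, and the labels name no mutation or drug treatment. Nothing in the files gives the sex, litter or number of embryos in a replicate.

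H3K4me2 marks promoters and enhancers, including enhancers that are poised but not active, whereas H3K27ac, an acetylation of lysine 27, marks promoters and enhancers in use. A region that carries H3K4me2 without H3K27ac is therefore often read as accessible but inactive. At E11.5 the cortical wall consists largely of dividing progenitors and the first neurons are being made. By E14.5 neurogenesis is in full course and postmitotic neurons have settled in the cortical plate, and at E17.5 the production of upper-layer neurons is ending. In bulk tissue, a smaller share of cells that carry a mark and less of the mark in each cell cannot be told apart. Positions are on mm9 and written 1-based. No annotation of that build was used, so loci are named by position alone, none is tied to a gene, and the tissue labels were not checked against marker genes.

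The 4 lists differed in length. On autosomes the E14.5 lists held 31577 regions (63.5 Mb) in replicate 1 and 43834 regions (92.2 Mb) in replicate 2, and the E11.5 lists held 32691 regions (67.0 Mb) in replicate 1 and 49707 regions (108 Mb) in replicate 2. The files hold positions only, so read depth is unknown and no interval for counting error could be given. The longer list of each stage was replicate 2, and the mixed loci followed this. Of these, 18359 were held by 1 list only, 11110 of them by E11.5 replicate 2 and 5417 by E14.5 replicate 2. A further 5052 were held by 1 list of each stage, 4708 of them by the replicate 2 lists, and 6764 were held by 3 lists. The number of loci held by the replicate 2 lists of both stages and by no other list thus exceeded the number gained and the number lost.

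Membership was set by short regions in the shorter lists. The smaller of the 2 covered lengths of a gained locus had a median of 750 bp, and it was at most 1000 bp in 1554 gained loci (80.4%). For lost loci the median was 725 bp, and 1983 (87.1%) were at most 1000 bp. Just outside the rule lay 2619 loci held by both E14.5 lists and by E11.5 replicate 2, which covered a median of 1125 bp of them, and 68 loci held by both E14.5 lists and by E11.5 replicate 1, with a median of 637.5 bp. In the other direction, 3947 loci held by both E11.5 lists were also held by E14.5 replicate 2 (median 1025 bp in that list) and 130 by E14.5 replicate 1 (median 612.5 bp).

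Gained and lost loci were narrower than shared loci and much alike in width, but wider than mixed loci. Gained loci had a median width of 1200 bp, with quartiles of 999 and 1501 bp, and lost loci a median of 1250 bp, with quartiles of 1025 and 1575 bp. Shared loci had a median of 2850 bp, with quartiles of 1975 and 4100 bp. Mixed loci had a median of 975 bp, and 52.2% of them were under 1000 bp, against 25.1% of gained and 21.3% of lost loci. Widths from 1000 to under 2000 bp made up 65.7% of gained and 67.8% of lost loci, and 11 gained and 12 lost loci reached 4000 bp, against 6475 shared loci (26.6%). Because a merged locus grows with the number of lists that hold it, the widths of shared loci are also given per list. At shared loci the covered length had a median of 2000 and 2450 bp in the E14.5 lists and 2100 and 2725 bp in the E11.5 lists. At gained loci it was 775 and 1150 bp in the E14.5 lists, and at lost loci 725 and 1225 bp in the E11.5 lists. The narrower width of gained and lost than of shared loci thus held within each list. Gained and lost loci had to be absent from both lists of the other stage, so their width is not independent of the rule within a list either. The reason for the difference was not tested.

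**Figure D1:**
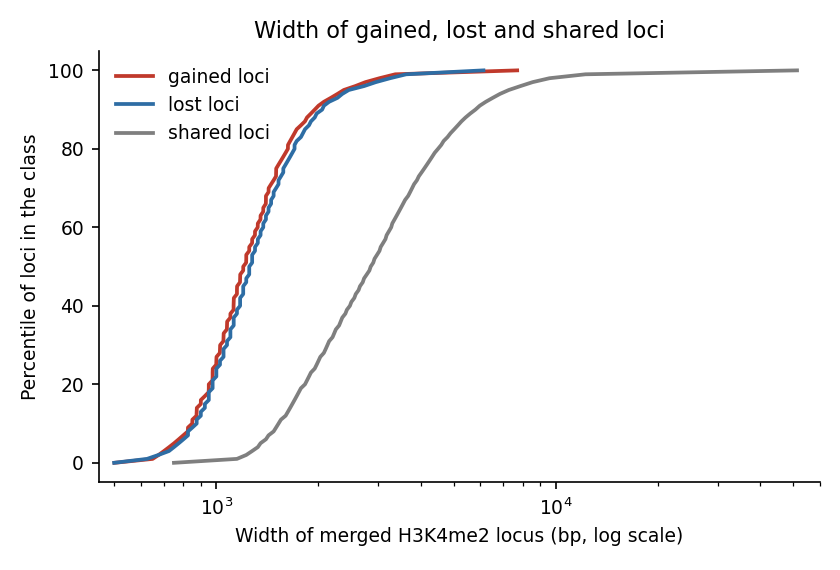
Width of the merged H3K4me2 locus (bp, log scale) against the percentile of loci in the class, for 1933 gained, 2276 lost and 24376 shared loci. The curves of gained and lost loci nearly coincide, with medians of 1200 and 1250 bp, and that of shared loci lies to the right, with a median of 2850 bp.

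The gained loci with the longest H3K4me2 cover in both E14.5 lists also carried H3K27ac in both E14.5 lists, in most cases over their whole length, and all 8 had both marks in every E17.5 list. The first by this order, chr8:87272801-87277826 (5026 bp), was covered over 4800 and 4100 bp in E14.5 replicates 1 and 2, against 0 bp in both E11.5 lists. H3K27ac covered 5026 and 4100 bp of it at E14.5, against 725 and 0 bp at E11.5, so the stages did not overlap in the second mark either. At E17.5, H3K4me2 covered 5001 and 3850 bp of it in frontal and 5026 and 5026 bp in occipital cortex. The locus chr17:3480802-3485126 was covered over 4325 and 4100 bp at E14.5, with H3K27ac over 4325 and 2224 bp at E14.5 against 1025 and 0 bp at E11.5.

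The widest of all gained loci was chr1:178857626-178865325 (7700 bp). H3K4me2 covered 3850 and 7700 bp of it in the E14.5 lists, so the replicates were far apart there. H3K27ac covered all 7700 bp in both E14.5 lists, against 1025 and 725 bp at E11.5, and all 7700 bp in each of the 4 E17.5 lists. None of the 8 longest gained loci was bare of acetylation before, since each had an H3K27ac region in at least 1 E11.5 list. The locus chr4:45766026-45769576 (3551 bp) had no H3K4me2 region at E11.5, yet H3K27ac covered 3425 and 2201 bp of it at that stage, and 3551 bp in both E14.5 lists. At chr6:115862826-115867126, too, H3K27ac covered 1950 and 2550 bp at E11.5, against 4301 bp in both E14.5 lists. The other 3 of the 8 longest, on chromosomes 8 and 11, were covered by H3K4me2 over 2800 to 4150 bp at E14.5 and over at least 3650 bp in every E17.5 list. In E11.5 replicates 1 and 2, H3K27ac covered 0 and 2125 bp of the locus on chromosome 8. It covered 0 and 500 bp, and 675 and 0 bp, of those on chromosome 11.

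The longest lost loci varied in acetylation, and 2 of the 8 had no H3K27ac in any mouse list. The first, chr8:111253226-111257850 (4625 bp), was covered by H3K4me2 over 0 bp in both E14.5 lists, against 4250 and 3825 bp in E11.5 replicates 1 and 2. H3K27ac covered 500 bp of it in E11.5 replicate 1 and 0 bp in every other mouse list, and no E17.5 list held H3K4me2 there. At chr2:28888001-28891050, covered over 2800 and 3050 bp at E11.5, no H3K27ac region was called in any of the 8 mouse lists, and H3K4me2 was absent from all 4 E17.5 lists. At chr1:136548126-136551050 (2800 and 2925 bp at E11.5) H3K27ac was likewise listed at 0 bp throughout, while H3K4me2 was called again at E17.5 over 525 and 0 bp in frontal and 975 and 1100 bp in occipital cortex.

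H3K27ac did not always leave with H3K4me2. At chr1:156876076-156878800, which H3K4me2 covered over 2475 and 2725 bp at E11.5, H3K27ac covered 2725 and 950 bp at E14.5 against 2725 and 1125 bp at E11.5, and it was called in all 4 E17.5 lists. At chr9:114456376-114459725 (H3K4me2 over 2800 and 3350 bp at E11.5), by contrast, H3K27ac covered 0 bp in both E14.5 lists, against 2175 and 775 bp at E11.5, and neither mark was called at E17.5. The other 3 had H3K27ac at E11.5, over 1175 and 0 bp at chr2:33484126-33488075, 1150 and 550 bp at chr2:38636926-38640650 and 2600 and 1500 bp at chr3:37570751-37573500. Only the last of these had any at E14.5, 625 bp in replicate 1.

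**Figure D2:**
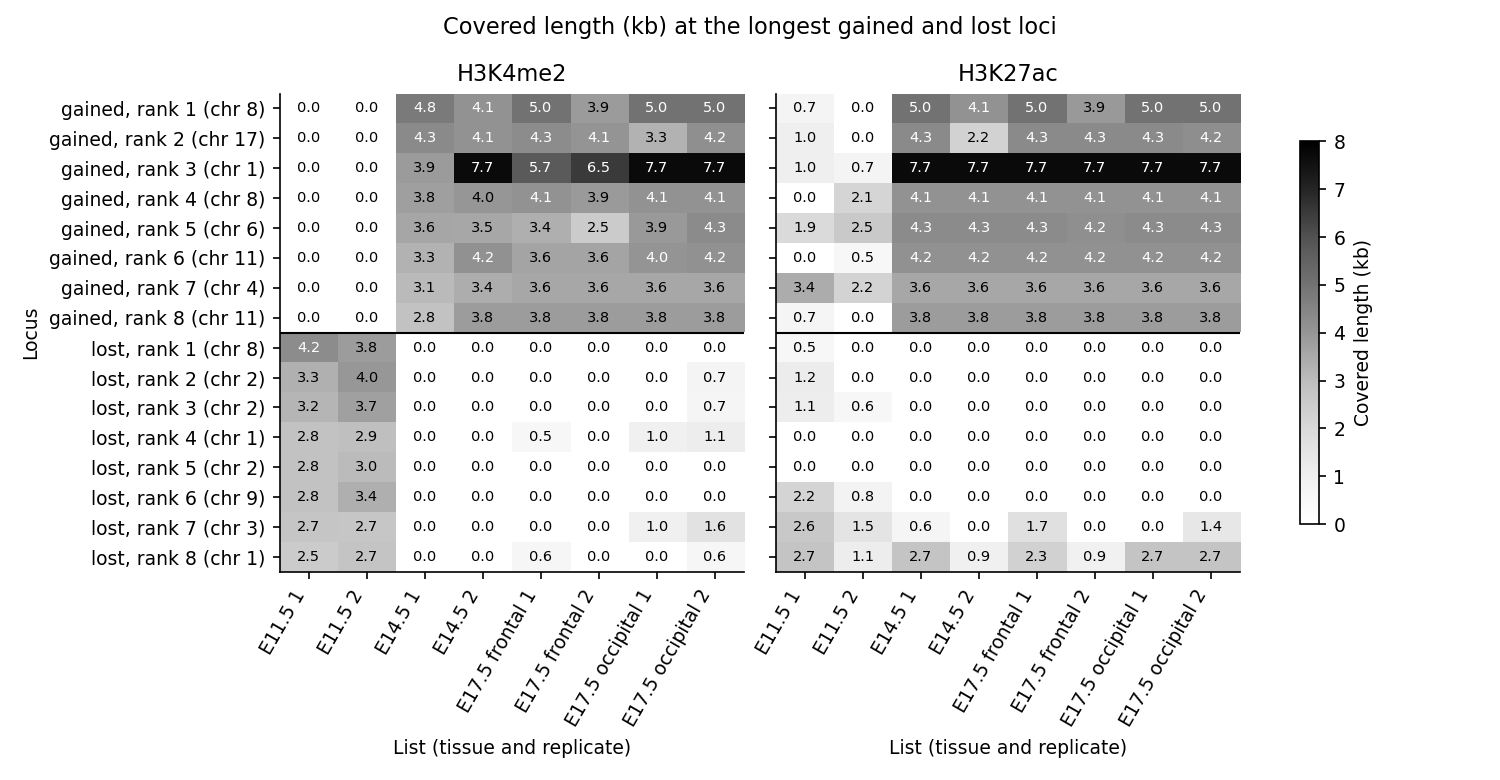
Length covered by H3K4me2 regions (left) and H3K27ac regions (right), in kb, at the 8 gained and 8 lost loci with the longest cover in both lists of their stage, in each of the 8 mouse lists of the mark. These gained loci were covered by both marks at E14.5 and E17.5, and each had H3K27ac in at least 1 E11.5 list. Most of these lost loci had neither mark, or short regions, after E11.5.

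Gained loci were acetylated in most cases at E14.5 and seldom at E11.5. An H3K27ac region overlapped 89.8% and 75.5% of the 1933 gained loci in E14.5 replicates 1 and 2, against 25.7% and 24.3% in E11.5 replicates 1 and 2. Both E14.5 lists lay far above both E11.5 lists, with means of 82.6% ± 10.1 and 25.0% ± 0.951 (SD, n = 2 each). The difference of 57.7 percentage points had an exact two-sided permutation p of 0.333, the smallest that 2 lists against 2 can give. Over all 58760 loci the shares were 74.5% and 63.1% at E14.5 against 59.9% and 49.5% at E11.5, so the mark was more widely called at E14.5 in general. At shared loci the E14.5 lists overlapped 95.3% and 89.1%, against 89.5% and 83.2% in the E11.5 lists, a difference of 5.88 points (exact permutation p = 0.667). When H3K27ac had to cover at least 50% of a locus, the difference at shared loci was larger. The shares were then 85.6% and 66.3% against 66.7% and 45.5%, a difference of 19.9 points (exact permutation p = 0.667). At gained loci that setting gave 61.5 points (exact permutation p = 0.333). The E14.5 H3K27ac lists were themselves longer, at 140 and 104 Mb against 82.4 and 61.1 Mb at E11.5. When each H3K27ac list was cut to the same number of regions, keeping the widest, the shares at gained loci were 80.7% and 69.6% at E14.5 against 23.1% and 24.3% at E11.5.

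Lost loci showed no such step in H3K27ac. A region overlapped 51.3% and 29.8% of the 2276 lost loci in the E14.5 lists, against 59.3% and 34.1% in the E11.5 lists. The values of the stages overlapped, and the spread between replicates exceeded the difference of -6.11 points between the means of 40.6% ± 15.2 and 46.7% ± 17.9 (SD, n = 2 each; exact permutation p = 0.667). With lists cut to the same number of regions the shares were 35.1% and 23.5% at E14.5 against 57.0% and 34.1% at E11.5, a difference of -16.2 points (exact permutation p = 0.667). The sign of the difference of -6.11 turned when E14.5 replicate 2 (4.64) or E11.5 replicate 1 (6.52) was left out. Even while they carried H3K4me2, lost loci were acetylated less often than gained loci were at E14.5, although the widths of the classes were alike. Set against each other within a list, which keeps list length equal, gained loci exceeded lost loci by 38.4 and 45.7 points in the E14.5 lists, against -33.7 and -9.74 points in the E11.5 lists. The excess was 40.4 to 46.4 points in the 4 E17.5 lists.

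**Figure D3:**
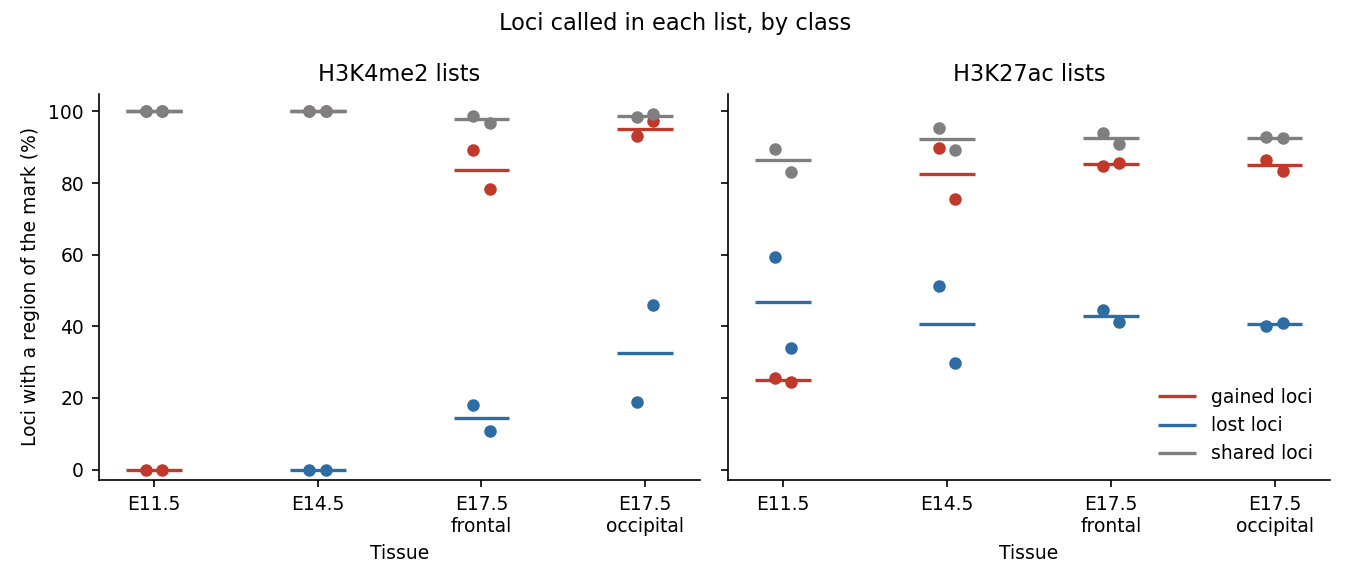
Share of gained, lost and shared loci (%) with a region in each list of H3K4me2 (left) and H3K27ac (right), by tissue. Points are single lists (replicate 1 left, replicate 2 right) and bars the mean of 2. H3K4me2 at E11.5 and E14.5 is fixed by the rule, so points at 100% lie over each other, while H3K27ac at gained loci stood at 24.3 and 25.7% at E11.5 and at 75.5% or more in all later lists.

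At gained loci both marks often appeared together. H3K27ac was called in both E14.5 lists and neither E11.5 list at 772 gained loci (39.9%), against 8.65% of all 58760 loci. Acetylation in both E11.5 lists, where no H3K4me2 was called at that stage, was found at 260 gained loci (13.5%), against 45.3% of all loci. Of these 260, 251 (13.0% of gained loci) were acetylated in all 4 lists, against 41.5% of all loci. No gained locus had H3K27ac in both E11.5 lists and neither E14.5 list, against 0.968% of all loci. Gained loci with H3K27ac in neither E14.5 list numbered 165 (8.54%), against 22.9% of all loci, and 50 (2.59%) had it in none of the 8 mouse lists. At 616 gained loci (31.9%) the acetylation that appeared at E14.5 was called in all 4 E17.5 lists as well, whereas 11 lacked it in all E17.5 lists. The counts for lost loci were 26 (1.14%) and 5. The courses that include E17.5 were counted for gained and lost loci only, so no share over all loci can be set beside them.

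The mirror course was found at few lost loci, though more often there than over all loci. H3K27ac was called in both E11.5 lists and neither E14.5 list at 103 lost loci (4.53%), against 0.968% of all loci, and at 52 of the 103 no E17.5 list held it. H3K27ac in all 4 lists of both stages was found at 373 lost loci (16.4%), against 41.5% of all loci. H3K27ac in none of the 4 lists was found at 626 (27.5%), against 18.4% of all loci, and in no mouse list at all at 460 (20.2%), so the share never acetylated was 20.2% of lost against 2.59% of gained loci. The share in no mouse list was not counted over all loci.

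The length covered by H3K27ac was tested locus by locus with limma on log2(covered bp + 200), in a fit over the 8 mouse H3K27ac lists. Loci with an H3K27ac region in at least 2 of the 8 lists were tested, which were 1825 of the 1933 gained loci and 1506 of the 2276 lost loci. At a Benjamini-Hochberg adjusted p below 0.05, 683 gained loci (35.3% of all gained) rose and none fell, against 9.98% of the 48136 tested loci that rose and 0.648% that fell. At an unadjusted limma p below 0.05, 983 gained loci were higher and 0 lower. Without the filter on lists, which loci can pass through the E14.5 lists alone, 657 gained loci rose, or 34.0%, and 0 fell, against 7.76% of all 58760 loci that rose and 0.516% that fell. All 657 were among the 683. The change of the median tested locus was 0.29 (log2). After division of covered length by the total of its list that change was -0.24, and 624 gained loci rose, 607 of them among the 683.

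Of the 683 gained loci that rose in H3K27ac, 597 had no H3K27ac region in either E11.5 list. H3K27ac was called in all 4 E17.5 lists at 665 of the 683 (97.4%), against 71.2% of all gained loci. H3K4me2 was called in all 4 at 569 (83.3%), against 75.2% of all gained loci. The fit that picked the 683 drew its spread from the E17.5 H3K27ac lists too, so the 97.4% is not independent of that choice. Both lists of E14.5 had more H3K27ac cover than both lists of E11.5 at 1293 gained loci (66.9%), against 31.2% of all loci, and less at 2, against 2.93%. More shared loci rose than fell, 1401 (5.90% of those tested) against 47 (0.198%). Both shares lay below the 9.98% and 0.648% of all tested loci. The split turned to 537 and 1389 with length scaled to the list total.

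The gained loci with the largest H3K27ac change were listed at 0 bp of H3K27ac at E11.5, and at 0 bp of H3K4me2 by the rule. A change from 0 bp to full cover is larger the wider the locus, so this order favours wide loci. Cover is bounded by 0 bp and by the width of the locus. Lists that are equal at these bounds show no spread that the limma p could measure. At chr4:97575101-97580025, H3K27ac covered 4925 and 4875 bp in the E14.5 lists against 0 and 0 bp in the E11.5 lists (limma adjusted p = 3.12e-05), and H3K4me2 covered 1550 and 4925 bp at E14.5. H3K27ac still covered at least 4651 bp of it in each E17.5 list. At chr3:68625926-68629675 all 3750 bp were acetylated in both E14.5 lists and in all 4 E17.5 lists, against 0 bp at E11.5 (limma adjusted p = 3.12e-05). At chr2:160444776-160448250 the course was less lasting. H3K27ac covered 3475 bp in both E14.5 lists against 0 bp at E11.5 (limma adjusted p = 0.000216), 2701 and 3475 bp in frontal cortex, and 1150 and 850 bp in occipital cortex at E17.5. The loci chr5:90494126-90497500 and chr15:66887676-66890951 were acetylated over their full 3375 and 3276 bp at E14.5 and over 0 bp at E11.5 (limma adjusted p = 9.88e-05 and 3.12e-05).

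Fewer lost loci changed in H3K27ac, and in both directions. Of the 1506 tested, 59 fell (3.92% of those tested, 2.59% of all lost) and 28 rose (1.86% of those tested). Over all tested loci 0.648% fell and 9.98% rose. With values shuffled over the lists the fit made 70 calls over all 48136 loci. That number was not split by class, so the counts of lost loci cannot be set against it. With lists cut to the same number of regions 146 fell and 14 rose. The median log2 change of tested lost loci turned sign with the list left out, and it lay below that of all tested loci each time. It was 0.129 against 0.486 without E11.5 replicate 1, and -0.455 against 0.111 without E11.5 replicate 2. Without E14.5 replicate 1 it was -0.493 against 0.105, and without E14.5 replicate 2 it was 0.156 against 0.470. At the locus chr4:150197751-150200250, H3K27ac covered 0 and 0 bp in the E14.5 lists against 2500 and 2475 bp at E11.5 (limma adjusted p = 0.00073), and 575 to 1850 bp in the E17.5 lists, while H3K4me2 was absent from all 4 of these. At chr17:48404676-48406575 it covered 0 bp in both E14.5 lists against 1725 and 1275 bp at E11.5 (limma adjusted p = 0.000758), and neither mark was called at E17.5. The loci chr3:95477201-95479975 and chr5:126761126-126762925 fell likewise (limma adjusted p = 0.0246 and 0.00205). At chr12:83578301-83580800, H3K27ac covered 0 and 0 bp at E14.5 against 1825 and 1500 bp at E11.5, but the change did not pass the test (limma adjusted p = 0.263). The E17.5 lists, which enter that fit, were far apart there, at 1776 and 0 bp in frontal and 0 and 825 bp in occipital cortex. In a fit of the 4 lists of E14.5 and E11.5 alone it passed (limma adjusted p = 0.00557). Of the 59 that fell, 51 had no H3K27ac in any E17.5 list, against 866 of all 2276 lost loci (38.0%). No E17.5 list held H3K4me2 at 47 of the 59 (79.7%), against 48.6% of all lost loci. The fit that picked the 59 drew its spread from the E17.5 H3K27ac lists too, so the 51 are not independent of that choice.

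The step in H3K27ac at gained loci was present in each band of width. Among loci narrower than 1000 bp, H3K27ac overlapped a mean of 71.3% of 485 gained loci at E14.5 against 18.2% at E11.5, and 34.2% of 484 lost loci at E14.5 against 33.0% at E11.5. From 1000 to under 2000 bp the means were 85.2% against 25.3% for 1270 gained loci, 41.5% against 49.6% for 1542 lost loci and 78.8% against 65.9% for 6228 shared loci. From 2000 to under 4000 bp they were 95.2% against 40.1% for 167 gained loci 46.2% against 54.0% for 238 lost loci and 96.0% against 91.5% for 11645 shared loci. At E14.5 the share of gained loci was thus above that of shared loci in the middle band and slightly below it in the widest, and at E11.5 it was below it in both.

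Narrow as they were in H3K4me2, gained loci with an H3K27ac region lay in broader ones at E14.5 than at E11.5. The E14.5 H3K27ac lists held wider regions in general, with medians of 1575 and 1150 bp against 1225 and 975 bp at E11.5. For each locus the longest H3K27ac region that touched it was taken, so a region could count for several loci. At gained loci its median width was 2275 and 1850 bp in the E14.5 lists, against 950 and 837.5 bp in the E11.5 lists. These medians rest on unlike sets, 1735 and 1460 gained loci at E14.5 against 496 and 470 at E11.5. At lost loci the medians were 1300 and 975 bp at E14.5 against 1175 and 950 bp at E11.5, and at shared loci 2325 and 1975 bp against 1925 and 1600 bp. Regions of at least 5000 bp held 15.99% and 9.57% of gained loci in the E14.5 H3K27ac lists, against 0.931% and 0.414% at E11.5. At shared loci the shares were 14.7% and 9.46% at E14.5 against 5.596% and 1.96% at E11.5. The E14.5 shares of both classes were close, although H3K4me2 regions of at least 5000 bp held 0 and 1 gained loci in the same tissue. In the E17.5 H3K27ac lists the shares of gained loci were 20.8% and 18.1% in frontal and 19.8% and 11.5% in occipital cortex, and those of shared loci 14.1%, 12.8%, 13.7% and 8.20%.

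Gained loci mostly kept H3K4me2 at E17.5, and lost loci were called far less often in every list of that stage. Of gained loci, 89.1% and 78.3% were called in the frontal lists and 93.0% and 97.2% in the occipital lists of H3K4me2. Of lost loci, 17.9% and 10.9% were called in the frontal and 18.98% and 45.9% in the occipital lists. The shares averaged 89.4% ± 8.12 for gained and 23.4% ± 15.4 for lost loci (SD, n = 4 lists). With E17.5 lists cut to the same number of regions, keeping the widest, the shares were lower, 59.9% to 67.9% for gained and 2.68% to 10.1% for lost loci. With the full lists gained loci exceeded lost loci within each list, by 51.3 to 74.0 points, with a mean of 66.0 ± 10.1 (SD, n = 4; exact two-sided sign-flip p = 0.125, the smallest that 4 lists can give). The labels do not say whether frontal and occipital lists come from the same embryos. Shared loci were called at 96.8% to 99.3%.

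Counted over all 4 E17.5 lists of H3K4me2, 1454 gained loci (75.2%) were held by every list and 25 (1.29%) by none, against 56.7% and 17.2% of all 58760 loci. For lost loci the counts were 107 (4.70%) and 1107 (48.6%). At least 1 E17.5 list held 1169 lost loci (51.4%). Of these, 488 (21.4% of lost loci) were held by occipital replicate 2 alone, the longest list of the mark at 158 Mb, against 7.65% of all loci. Loci held by both occipital lists and neither frontal list numbered 118 gained (6.10%) and 178 lost (7.82%), against 5.19% of all loci. The opposite pattern was found at 5 gained and 9 lost loci, against 0.405% of all loci. Both frontal lists were shorter than both occipital lists, 102 and 87.2 Mb against 109 and 158 Mb, and area and list length cannot be told apart here.

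**Figure D4:**
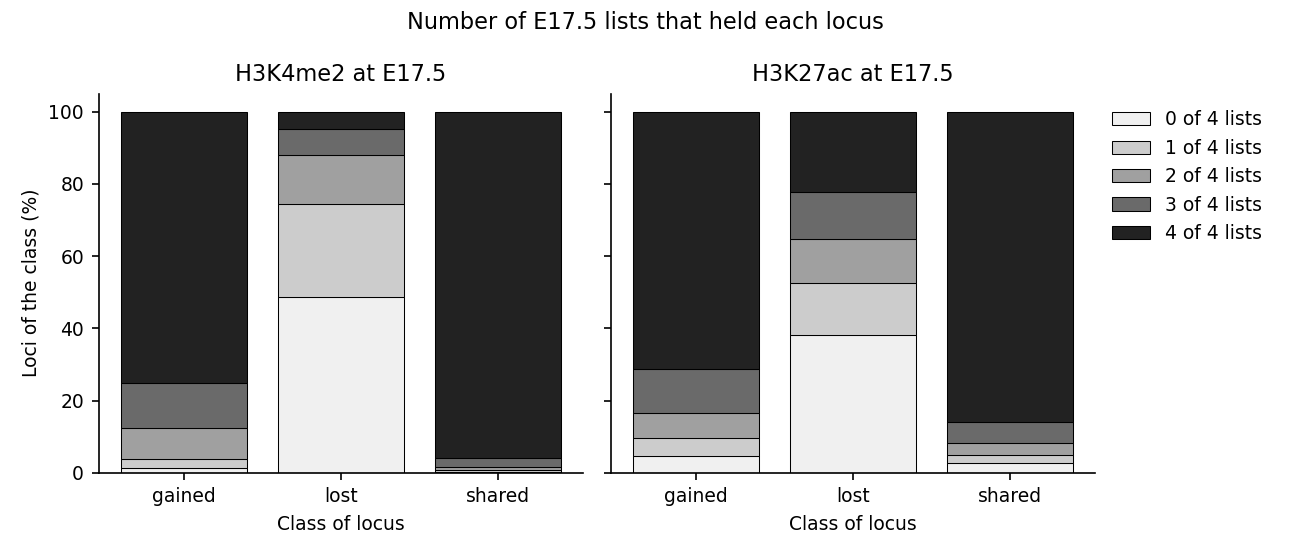
Stacked bars give the share of gained, lost and shared loci (%) held by 0, 1, 2, 3 or 4 of the E17.5 lists of H3K4me2 (left) and H3K27ac (right). All 4 lists held 75.2% of gained and 4.70% of lost loci for H3K4me2, and 71.2% and 22.3% for H3K27ac.

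Both marks lasted together at gained loci. H3K27ac and H3K4me2 were each called in all 4 E17.5 lists at 1138 gained loci (58.9%), against 57 lost loci (2.50%) and 20501 shared loci (84.1%). The marks parted in different ways. H3K27ac was called in all 4 E17.5 lists at 508 lost loci (22.3%), against 71.2% of gained and 86.0% of shared loci. At 100 of these 508 (4.39% of lost loci) no E17.5 list held H3K4me2. That state was found at 5 gained (0.259%) and 8 shared loci (0.0328%). H3K4me2 in all 4 E17.5 lists with H3K27ac in none was found at 39 gained loci (2.02%), compared with 12 lost (0.527%) and 474 shared loci (1.94%). Neither mark was called in any E17.5 list at 600 lost loci (26.4%), at 6 gained loci and at 17 shared loci (0.0697%). These joint states were counted for gained, lost and shared loci, not over all loci.

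The hold of H3K4me2 on gained loci differed little with their acetylation. Of 1427 gained loci with H3K27ac in both E14.5 lists, 1086 (76.1%) were held by all 4 E17.5 H3K4me2 lists, and of 165 with H3K27ac in neither, 113 (68.5%) were. The 1427 had a median width of 1299 bp and the 165 a median of 1049 bp. Acetylation in all 4 E17.5 lists was found at 84.4% of the 1427 and at 12.1% of the 165. Among lost loci, 43 of 598 with H3K27ac in both E14.5 lists (7.19%) and 37 of 1027 with it in neither (3.60%) were held by all 4 E17.5 H3K4me2 lists, and 33.8% and 58.6% by none. These subsets were formed from measured values, and the differences were not tested.

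Loci held by replicate 2 of 1 stage alone were also followed. Of the 5417 loci held by E14.5 replicate 2 alone (median width 775 bp), 63.0% on average had H3K27ac at E14.5 against 15.99% at E11.5, and 46.1% to 87.5% were called in the E17.5 H3K4me2 lists. Of the 11110 held by E11.5 replicate 2 alone (median 825 bp), 29.4% had H3K27ac at E14.5 against 25.4% at E11.5, and 8.41% to 37.4% were called at E17.5. The 2619 loci held by both E14.5 lists and E11.5 replicate 2 lay between gained and shared loci at E11.5. H3K27ac overlapped 87.8% and 73.0% of them in the E14.5 lists against 54.1% and 41.5% in the E11.5 lists.

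At loci held by all 4 lists the length of H3K4me2 was tested with limma in a fit over the 8 mouse lists. Of 24376 shared loci, 177 rose and 118 fell at an adjusted p below 0.05, against 4.27% higher and 3.71% lower among 40401 loci tested. That background includes the gained and lost loci, which the rule had separated by stage. In a fit over loci held by at least 3 lists, which leaves those out, 19 shared loci rose and 4 fell. The counts hung on single lists. They were 1176 and 88 without E11.5 replicate 2, 96 and 245 without E11.5 replicate 1, 118 and 668 without E14.5 replicate 2, 78 and 63 without occipital replicate 1, and 78 and 61 without occipital replicate 2. No shared locus passed limma without E14.5 replicate 1 (1076 higher and 273 lower at an unadjusted p below 0.05) or without frontal replicate 1 (480 and 598) or 2 (480 and 605). By the order of values alone, both E14.5 lists exceeded both E11.5 lists at 1447 shared loci (5.94%) and lay below them at 3542 (14.53%), against 6.91% and 12.4% of all loci.

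Among the shared loci that passed, those with the largest rise had broad regions at E14.5 and short ones at E11.5. At chr11:98178276-98192375, H3K4me2 covered 13600 and 14100 bp in the E14.5 lists against 2250 and 3150 bp in the E11.5 lists, a log2 change of 2.29 ± 0.16 (SE; limma adjusted p = 0.00879). H3K27ac covered all 14100 bp in both E14.5 lists against 0 and 2100 bp at E11.5. At chr15:78371552-78375976 H3K4me2 covered 4425 and 4350 bp at E14.5 against 650 and 800 bp at E11.5 (2.31 ± 0.14, limma adjusted p = 0.00618). The loci chr4:82230326-82239150 and chr19:59126651-59129950 rose as well (2.23 and 2.17, limma adjusted p = 0.0145 and 0.00622), as did chr18:69733401-69740651 (2.18, limma adjusted p = 0.0424), and H3K27ac covered each in full in both E14.5 lists. In the fit over loci held by at least 3 lists, chr4:82230326-82239150 and chr18:69733401-69740651 no longer passed (limma adjusted p = 0.145 and 0.314), while the other 3 did.

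In the other direction, none of the 5 loci with the largest fall passed in the fit over loci held by at least 3 lists (limma adjusted p of 0.166 to 0.29), so the calls below rest on the wider fit. The locus chr6:23218401-23225375 held H3K4me2 over 750 and 1700 bp at E14.5 against 4700 and 6950 bp at E11.5, a log2 change of -2.14 ± 0.37 (SE; limma adjusted p = 0.024). H3K27ac covered 0 bp of it in both E14.5 lists and all E17.5 lists, against 2850 and 975 bp at E11.5. At chr9:79670301-79679825 H3K4me2 covered 1650 and 3325 bp at E14.5 against 7850 and 9525 bp at E11.5 (-1.79 ± 0.30, limma adjusted p = 0.021). The shrinking of H3K4me2 was not always joined by H3K27ac. At chr11:21914601-21919325 H3K4me2 fell (-1.98 ± 0.39, limma adjusted p = 0.0359), while H3K27ac covered 4450 and 1350 bp at E14.5 against 650 and 0 bp at E11.5. The locus chr7:78524026-78531725 fell at E14.5 (-1.78 ± 0.28, limma adjusted p = 0.0178) and at E17.5 was covered over 1975 and 1275 bp in frontal but 6250 and 7700 bp in occipital cortex. The last of the 5 with the largest fall was chr5:115033676-115036700 (-1.81, limma adjusted p = 0.0339). Across 23761 shared loci the log2 changes of the marks correlated at Pearson r = 0.259 and Spearman rho = 0.290, as a description across loci that share the same tissue samples.

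Gained and lost loci were spread over all autosomes. There were 7.93 gained and 9.34 lost loci per 100 shared loci in all. Chromosome 11 had the highest ratio of gained to lost loci, 143 to 89, and chromosome 14 the lowest, 54 to 125, against 0.849 over all autosomes. Chromosome 14 had 13.4 lost loci per 100 shared and chromosome 11 had 4.86. Gained loci lay a median of 22975 bp from the nearest shared locus and lost loci 20725 bp, and 14.9% and 16.6% lay within 5000 bp of one. Mixed loci lay a median of 24925 bp away, with 14.8% within 5000 bp, so nearness to shared loci did not set gained or lost loci apart.

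**Figure D5:**
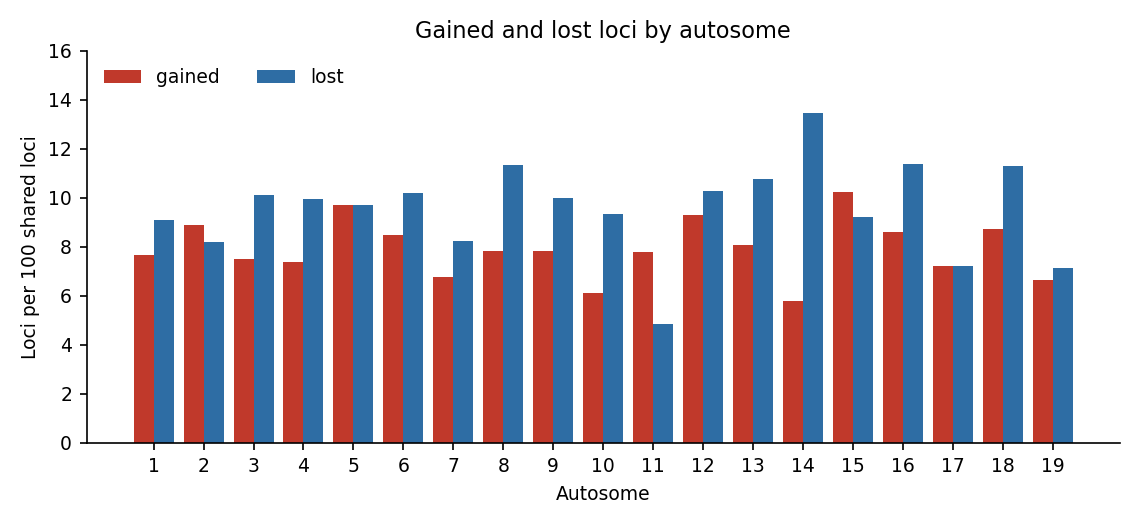
Gained and lost loci per 100 shared loci on each of the 19 autosomes. Chromosome 11 had 7.81 gained and 4.86 lost loci per 100 shared, and chromosome 14 had 5.81 and 13.4.

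The nearest locus of the same class lay a median of 237600 bp away for gained and 210138 bp for lost loci, and within 5000 bp for 2.22% and 2.72%. For the far more numerous shared loci it was 18525 bp, and this distance depends on the number of loci in a class. In windows of 500 kb, chosen after their values were seen, the most gained loci were 7, on chromosome 5 from 125500001 to 126000000, with 2 lost and 20 shared loci in the same window. Of these 7, H3K27ac was called in both E14.5 lists at 6 and in both E11.5 lists at 2. The window on chromosome 11 from 118000001 to 118500000 held 6 gained and 0 lost loci, all 6 acetylated in both E14.5 lists, and 5 were held by all E17.5 lists of H3K4me2. The most lost loci in a window were 6, on chromosome 8 from 127500001 to 128000000, with 2 gained loci, and on chromosome 7 from 122500001 to 123000000, with 0 gained loci, where 5 of the 6 were in no E17.5 H3K4me2 list.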

How the data were processed

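The authors deposited 1 list of regions per ChIP sample, holding chromosome, start and end (positions in bp) and no score, signal or count. Bowtie 0.12.9 is listed, with builds mm9 and hg19, per the submitters' processing notes. Mouse positions were taken as mm9. The sources used here name no region caller and no threshold. Per the series' design text, both marks of a replicate share an input, so they are not fully independent. Nothing tells how replicates were collected beyond their being biological ones, and p-values measure the spread between these lists.

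Regions on autosomes were merged when they overlapped by at least 1 bp, and a list held a locus when it had a region in it. Covered length, as log2 of covered bp plus 200, was tested in R 4.3.3 with limma 3.58.1 (eBayes with a trend), with a mean per tissue over the 8 lists of a mark and Benjamini-Hochberg adjustment over all tested loci. For H3K4me2, loci held by at least 2 of the 4 lists entered. A log2 change on this scale understates changes of short loci. Shares were compared over lists by exact permutation in Python 3.11.15 (numpy 2.4.6, scipy 1.17.1, pandas 2.3.3, matplotlib 3.10.9). The limma step was tested on simulated data, made by shuffling values over lists and lengthening some loci. It recovered part of the lengthened loci and also made some calls where nothing had been changed, more for H3K27ac than for H3K4me2.

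The members, tests and rules were chosen with earlier results of these data known. Named loci were the 8 gained and 8 lost with the largest smaller-of-2 covered length, the 5 shared called higher and 5 lower with the largest change whose stages did not overlap, and the 5 gained and 5 lost with the largest H3K27ac change up and down. No sequence of mm9 was used, so none is shown.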

Additional observations from a re-analysis of the deposited data

How the results depend on the processing

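With lists cut to the same number of regions, keeping the widest, 2362 gained and 2220 lost loci were found, so that gained loci then outnumbered lost loci. With regions of at least 1000 bp only, 707 gained and 911 lost loci were found. Leaving out each list gave 2001 to 7356 gained, 2407 to 13393 lost and 24553 to 28325 shared loci, since a stage with 1 list is judged by it alone. The H3K27ac difference at gained loci was 50.5 to 64.8 points without single lists, at shared loci 2.74 to 9.02, and at lost loci -18.7 to 6.52, with 4.64 without E14.5 replicate 2 and 6.52 without E11.5 replicate 1. With H3K27ac over at least 50% of the locus it was 61.5 points at gained, 19.9 at shared and -5.60 at lost loci. The E17.5 difference between gained and lost loci was 63.3 to 70.9 points without single lists and 56.7 to 69.3 under the other settings.

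Replicate numbers were not taken as pairs, since the labels do not tie them across stages. The replicate differences of the stages correlated at 0.0348 for H3K4me2 and 0.101 for H3K27ac over all loci, and at 0.361 and 0.122 over shared loci, with 2 pairs only. With the replicate block 642 gained loci rose in H3K27ac, 58 lost loci fell and 22 rose, 1211 shared loci rose and 45 fell, and in H3K4me2 146 shared loci rose and 107 fell. The block changed no share difference, with an exact p of 0.5 over 2 pairs, and moved none of these counts by over 1.5 times.

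For H3K27ac calls, leaving out lists gave 601 to 992 gained loci higher, 12 to 125 lost loci lower, 22 to 125 lost loci higher, 805 to 4896 shared loci higher and 38 to 278 lower. Lost loci lower numbered 9 with loci in at least 3 lists, 92 with scaled length and 146 with equal numbers of regions, where 14 were higher. Shared loci higher and lower numbered 926 and 76 in a fit of the 4 lists alone, 537 and 1389 with scaled length, and the lower 28 with loci in at least 3 lists and 139 with equal numbers of regions. For H3K4me2, shared loci higher and lower numbered 72 and 31 with no filter, 19 and 4 with loci in at least 3 lists, 0 and 0 in a fit of the 4 lists alone (258 and 407 at an unadjusted limma p below 0.05), and the lower 70 with scaled length. Leaving out lists gave 0 to 1176 higher and 0 to 668 lower. The share of all tested loci that passed shifted between settings as well, so these counts are not shifts of 1 class alone. The cause of these shifts was not tested. No value of a named locus turned sign under another setting. Of the values of named shared loci under other settings, 27 of those higher and 51 of those lower no longer passed limma, while 53 and 29 did. For named H3K27ac changes 1 value at gained and 7 at lost loci no longer passed, and 1 at a lost locus newly did. Read depth is unknown, so that a region absent from a list may have lain below that list's threshold.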
